A study of Mus musculus with 11 samples.

Results

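The genes described here encode the enzymes of phase II conjugation in mouse liver. All rows of the deposited gene table were taken whose symbol begins with Gsta, Gstm, Gstt, Gstp, Gstk, Gsto, Gstz, Ugt1a, Ugt2a, Ugt2b, Ugt3a or Sult followed by its subfamily number. The rule found 43 of 13636 genes: 19 glutathione transferases, 17 UDP-glycosyltransferases and 7 sulfotransferases. Of 64 protein-coding genes in GENCODE M21 that fit the rule, these 43 are in the table and the others were not analysed here. The table had been filtered on low values, since each of its genes exceeded 1 CPM in at least 3 of the 11 libraries. Liver RNA was sequenced in 3 groups: 4 libraries from mice injected with a miR-30c mimic, 3 from mice injected with a scramble oligomer, and 4 from mice injected with PBS. The mimic and the scramble oligomer were given in rising doses, first 2.5, then 5.0 and at last 7.5 mg/kg, and injections in all groups ran over 6 weeks. Every group consisted of male C57BL/6 mice that had been fed a Western diet from 8 weeks of age, for a month before the first injection. Whether each library comes from its own mouse is not stated, and the p-values refer to the spread between libraries.

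Phase II enzymes attach a polar group to foreign compounds, hormones, bilirubin and reactive lipid products, after which the conjugate leaves the hepatocyte by transport into bile or blood. Glutathione transferases (GST) add glutathione to electrophiles. UDP-glycosyltransferases (UGT) sit in the endoplasmic reticulum and add a sugar from a UDP-sugar donor, and cytosolic sulfotransferases (SULT) add sulfate from the donor PAPS. The hepatocyte holds most of these enzymes in the liver, and several families are known for regulation by the xenobiotic receptors and by NRF2.

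The sequences below show the microRNA for which the mimic is named and what stands upstream of the members on which the results turn. The mature mouse miR-30c-5p of RefSeq is the same from both of its genes, Mir30c-1 on chromosome 4 and Mir30c-2 on chromosome 1, and capitals mark its seed, bases 2 to 8. The sequence of the injected mimic itself is not given in the sources used here.
mmu-miR-30c-5p: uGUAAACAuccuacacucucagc

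The 7-base match to that seed, TGTTTAC, was searched for in the longest 3′ UTR annotated for each gene in GENCODE M21 (GRCm38), in a search added after the data had been seen. It was found in 1 of 43 members (2.33%), against 1839 of 11516 genes of the table with an annotated 3′ UTR (16.0%). The median UTR was shorter in the members, with 542 bases against 1166 bases for the genes of the table, and the 7 Ugt1a genes share their last exons. The one match was in Ugt2b35 on chromosome 5, at base 935 of its 3′ UTR, shown with its flanks and with the match in capitals. Ugt2b35 did not pass the test in any comparison below.
Ugt2b35: ctcctcatgaaacTGTTTACaattaacc

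Promoters of 4 members follow, as RefSeq gives them on GRCm38.p6, from 250 bases before to 50 bases after the start, 5′ to 3′ on the gene's strand. They belong to a pair of genes that rose with the mimic, Gstm2 and Gstm5, and to a pair that fell, Ugt1a1 and Ugt2b1. Capitals mark matches on either strand to 3 motifs: the antioxidant response element core TGACNNNGC, the xenobiotic response element core GCGTG and the STAT site TTCNNNGAA.
Gstm2 (chr3:107986371-107986670, minus strand): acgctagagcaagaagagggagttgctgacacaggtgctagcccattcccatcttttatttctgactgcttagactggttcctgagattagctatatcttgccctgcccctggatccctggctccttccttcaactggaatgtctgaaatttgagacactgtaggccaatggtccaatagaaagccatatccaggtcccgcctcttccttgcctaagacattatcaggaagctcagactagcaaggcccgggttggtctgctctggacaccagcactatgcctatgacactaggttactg
Gstm5 (chr3:107895604-107895903, plus strand): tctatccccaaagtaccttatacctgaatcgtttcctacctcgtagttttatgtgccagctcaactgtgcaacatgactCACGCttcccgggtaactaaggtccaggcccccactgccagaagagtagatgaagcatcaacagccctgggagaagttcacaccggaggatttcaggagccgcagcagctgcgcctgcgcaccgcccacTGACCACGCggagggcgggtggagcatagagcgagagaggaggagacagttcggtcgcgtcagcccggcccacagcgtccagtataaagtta
Ugt1a1 (chr1:88211709-88212008, plus strand): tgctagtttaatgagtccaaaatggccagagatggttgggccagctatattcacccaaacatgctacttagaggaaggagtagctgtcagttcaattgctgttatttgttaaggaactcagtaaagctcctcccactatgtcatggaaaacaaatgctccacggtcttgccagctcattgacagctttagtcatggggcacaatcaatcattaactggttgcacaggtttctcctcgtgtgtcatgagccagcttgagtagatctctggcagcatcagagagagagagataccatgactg
Ugt2b1 (chr5:86926454-86926753, minus strand): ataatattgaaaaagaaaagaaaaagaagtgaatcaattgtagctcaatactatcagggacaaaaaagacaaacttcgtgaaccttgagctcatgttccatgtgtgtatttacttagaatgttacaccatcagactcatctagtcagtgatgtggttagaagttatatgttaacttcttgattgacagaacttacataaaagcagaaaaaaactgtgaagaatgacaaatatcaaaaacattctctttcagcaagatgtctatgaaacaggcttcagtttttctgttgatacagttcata

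Gstm5 held an antioxidant response element core at base −42 from its start, which overlaps a xenobiotic response element core, and a further xenobiotic core at −171. Gstm2, Ugt1a1 and Ugt2b1 had none of the 3 motifs in the window. The shares that follow are over the 39 members with a RefSeq promoter and over all 27025 genes with one. The antioxidant core was in 3 members (7.69%, against 14.0% of all genes), the xenobiotic core in 8 (20.5%, against 35.2%) and the STAT site in 3 (7.69%, against 9.55%). Over the 9459 genes of the table with a promoter, the antioxidant core was in 1605 genes, the xenobiotic core in 5175 (54.7%) and the STAT site in 803 (8.49%). A match describes letters in the window and is not evidence that a factor binds there.

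The values are the authors' scaled CPM. Each library held between 39705157 and 101380174 counted reads, with 39705157 to 60399018 in the mimic libraries, 74519792 to 88869950 in the scramble libraries and 62848115 to 101380174 in the PBS libraries. The lowest value of any member in any library stood for 11 reads, so no member was at 0. The major urinary protein genes took 11.6 to 41.3% of counted reads in the mimic libraries, 37.9 to 50.0% in the scramble libraries and 38.2 to 52.9% in the PBS libraries, with mimic 1 (12.5%) and mimic 4 (11.6%) lowest. When reads were divided by library totals in place of the deposited scaling, the median log2 change of all genes moved to 0.49 against scramble and to 0.51 against PBS. Under that scaling 7 of the 25 members called against scramble and 7 of the 23 called against PBS were still called. Each 7 includes Sult2a7, which is in the table only through the mimic libraries. Of the 25 and the 23, 5 and 3 changed sign. Relative to the moved medians, all 25 and all 23 kept their direction. The changes below are on the log2(scaled CPM + 1) scale, which understates the change of low genes, and a member is called when its adjusted p from limma over all 13636 genes is under 0.05.

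With the deposited scaling, most UGT genes fell with the mimic, and most GST mu genes rose. Against scramble, 6 members rose, 19 fell and 18 were not called. That is 14.0% of members higher and 44.2% lower, beside 17.3% of all genes higher and 14.7% lower. Against PBS, 6 members rose, 17 fell and 20 were not called, which is 14.0% higher and 39.5% lower, beside 20.0% of all genes higher and 17.1% lower. After division by library totals, 9 members were called higher and 1 lower against scramble, and 13 higher and 1 lower against PBS. The share of all genes called under that scaling is not given here, so these counts are not read as a result about the members. With the deposited scaling, the share of members that fell was above the background in both comparisons. The share that rose was not far from the background, and it is not read as a result about the members. One of the members that rose, Sult2a7, exceeded 1 CPM in 4 mimic libraries and in 0 control libraries. It is in the table only through the mimic libraries and thus had to differ. In all, 985 genes (7.22% of the table) exceeded 1 CPM in at least 3 mimic libraries and in fewer than 3 control libraries, and the background share of higher genes includes them. Without Sult2a7, 5 of 42 members (11.9%) rose in each comparison. The median log2 change was −0.45 over the members against scramble and −0.30 against PBS, with 0.00 over all genes in each. The mimic comparisons use the same 4 mimic libraries, so they are not independent of each other. Of the members, 22 were called against both controls, 3 against scramble alone (Gstt1, Sult1b1 and Ugt2b34), 1 against PBS alone (Gsta2) and 17 against neither. None of the 4 called against 1 control alone was called between scramble and PBS, so the controls were not shown to differ for them.

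Part of the count of lower members came from the UGT1A locus, whose 7 rows share reads. With that locus counted as 1 row, 13 of 37 rows fell (35.1%) and 6 rose (16.2%) against scramble, and 11 fell (29.7%) and 6 rose (16.2%) against PBS. The 4 mimic libraries all lay below all 7 control libraries in 15 members, where 11.5% of all genes did so, and all above them in 4 members, where 14.4% did so. All 7 UGT1A rows, which share reads, are among the 15. Sult2a7, which is in the table only through the mimic libraries, is among the 4 and among the 6 rows that rose. The scramble oligomer alone moved no member past the threshold against PBS with limma, and 0.0% of all genes were called higher and 0.0% lower. At an unadjusted p under 0.05, 3 of 43 members and 434 of all genes differed between scramble and PBS. Summed over the 37 rows, the members reached 2906 ± 411 scaled CPM in mimic livers (SD, n = 4), 4049 ± 186 in scramble livers (n = 3) and 3911 ± 417 in PBS livers (n = 4).

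**Figure D1:**
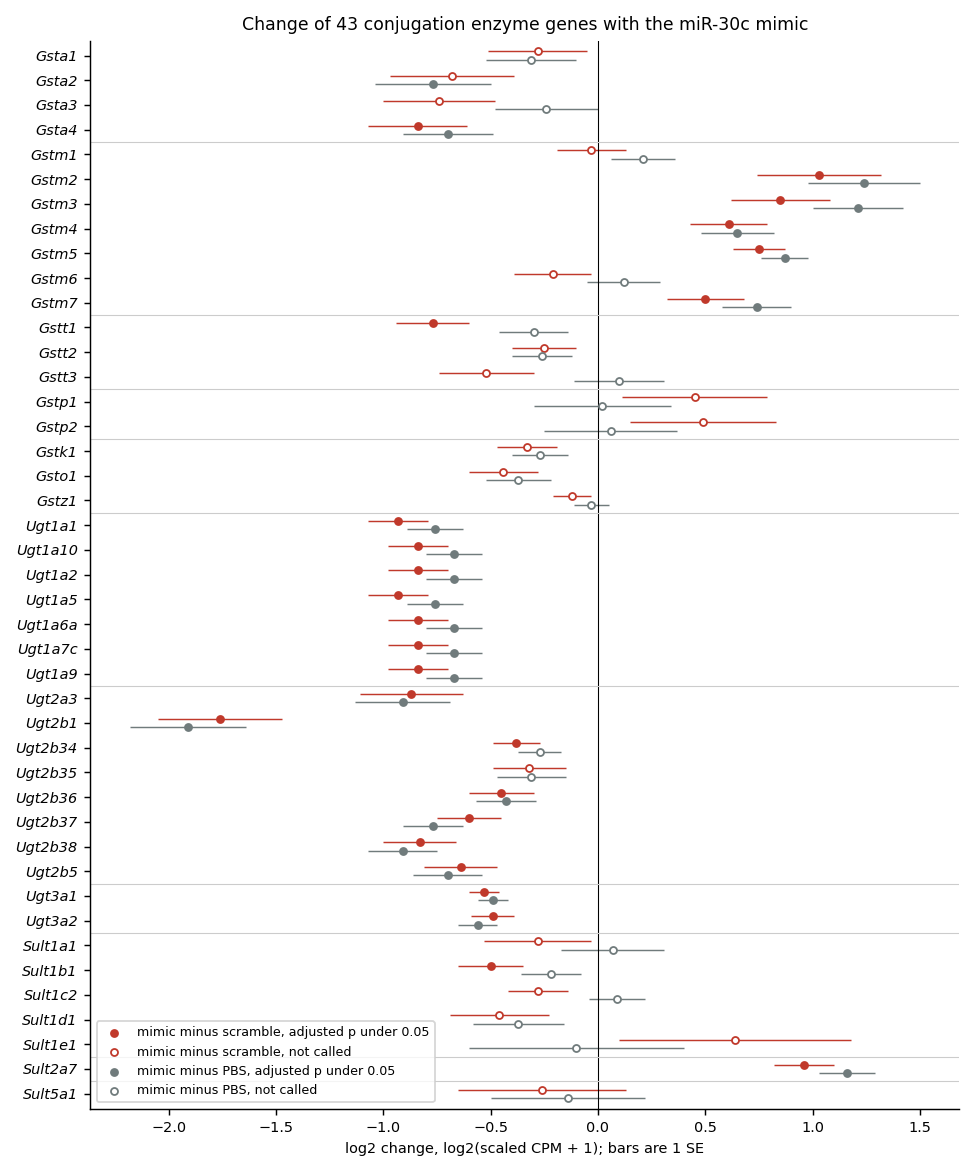
Log2 change of each of the 43 members with the mimic, against scramble (red) and against PBS (grey), on the log2(scaled CPM + 1) scale; bars are 1 SE, filled points have an adjusted p under 0.05 and lines part the families. UGT genes lie left of 0, 5 GST mu genes and Sult2a7 lie right of it, and Ugt2b1 lies farthest left at −1.76 and −1.91; under division by library totals, 17 of the 34 members left of 0 against scramble and 15 of the 30 left of 0 against PBS move to the right of it, among them Ugt2b34, Ugt2b35, Ugt2b36, Ugt3a1, Ugt3a2 and Sult1b1 in both comparisons.

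In the UGT2 family, 7 of 8 measured genes fell against scramble and 6 of 8 against PBS. These enzymes glucuronidate steroids, bile acids and many drugs. Ugt2b1, on chromosome 5 at 86916638 to 86926530 (GRCm38), was the member with the largest fall. It had 106, 202, 183 and 89.3 scaled CPM in the mimic libraries, 433, 441 and 526 in the scramble libraries, and 370, 453, 649 and 662 in the PBS libraries. Every mimic library was below every control library, and the highest mimic value was 202 beside a lowest control value of 370. The mimic mean was 0.311 times the scramble mean (log2 change −1.76 ± 0.29 SE, adjusted p = 0.0011) and 0.272 times the PBS mean (−1.91 ± 0.27, adjusted p = 0.00035). Ugt2b1 was also the only member called lower after division by library totals, with −1.17 against scramble and −1.31 against PBS. In bulk liver, fewer cells of a type and less RNA per cell cannot be told apart.

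Ugt2b38 had 41.1, 50.8, 53.8 and 35.1 scaled CPM in mimic livers, 72.7, 67.8 and 103 in scramble livers, and 75.0, 82.4, 82.3 and 102 in PBS livers. The groups did not overlap, and the log2 change was −0.83 ± 0.17 against scramble (adjusted p = 0.0048) and −0.91 ± 0.16 against PBS (adjusted p = 0.0015). Ugt2b37, a low-level relative, had 8.53, 8.66, 7.78 and 6.82 scaled CPM in mimic livers, 11.9, 10.9 and 15.1 in scramble livers, and 10.9, 13.1, 17.4 and 16.2 in PBS livers. All mimic values were again below all control values (−0.60 ± 0.15, adjusted p = 0.013, against scramble, and −0.77 ± 0.14, adjusted p = 0.0021, against PBS). Ugt2b5 averaged 238 ± 43.1 scaled CPM in mimic livers, 370 ± 56.8 in scramble livers and 387 ± 70.7 in PBS livers, and changed by −0.64 (adjusted p = 0.017) and −0.70 (adjusted p = 0.0066).

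Ugt2a3 fell by 0.87 on the log2 scale against scramble (adjusted p = 0.016) and by 0.91 against PBS (adjusted p = 0.0079). Its mimic libraries stood in 2 pairs, with 41.7 and 48.0 scaled CPM in mimic 1 and 4 and 85.7 and 85.0 in mimic 2 and 3. All 4 were below the scramble values of 110, 109 and 124 and the PBS values of 97.9, 143, 124 and 110. Ugt2b36 and Ugt2b34 changed least among the called UGT2 genes, and in both the sign depended on the scaling. Ugt2b36 fell against scramble (−0.45, adjusted p = 0.036) and against PBS (−0.43, adjusted p = 0.028), and was at 0.13 and 0.17 after division by library totals. Ugt2b34 fell against scramble alone (−0.38, adjusted p = 0.021, or 0.21 after division by library totals). Against PBS it changed by −0.27 (adjusted p = 0.054, or 0.34 after division by library totals). Ugt2b35, with the seed match, averaged 94.0 ± 11.3 scaled CPM in mimic livers, 117 ± 6.66 in scramble livers and 119 ± 29.0 in PBS livers, and was not called (−0.32, adjusted p = 0.16, and −0.31, adjusted p = 0.14). Its changes were 0.26 and 0.29 after division by library totals.

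The 8 genes lie side by side on chromosome 5, and their order along it is Ugt2b34, Ugt2b1, Ugt2b35, Ugt2b36, Ugt2b5, Ugt2b37, Ugt2a3 and Ugt2b38. The gene with the largest fall thus lies between Ugt2b34, with a change of −0.38, and Ugt2b35, with −0.32. The summed UGT2 value was 967 ± 156 scaled CPM in mimic livers, 1654 ± 158 in scramble livers and 1730 ± 291 in PBS livers. Without scramble 3, the calls against scramble of Ugt2a3, Ugt2b5, Ugt2b34, Ugt2b36 and Ugt2b37 were lost, while their direction stayed. The call of Ugt2b36 against scramble was lost without any one of scramble 1, 2 or 3 or mimic 1, 2 or 4, and against PBS without any one of mimic 1 or 4 or PBS 1, 3 or 4. That of Ugt2b34 was also lost without scramble 1 or mimic 4. These genes are close in sequence, and how reads that match several of them were counted is not given in the sources used here, so values of single Ugt2b genes are uncertain.

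**Figure D2:**
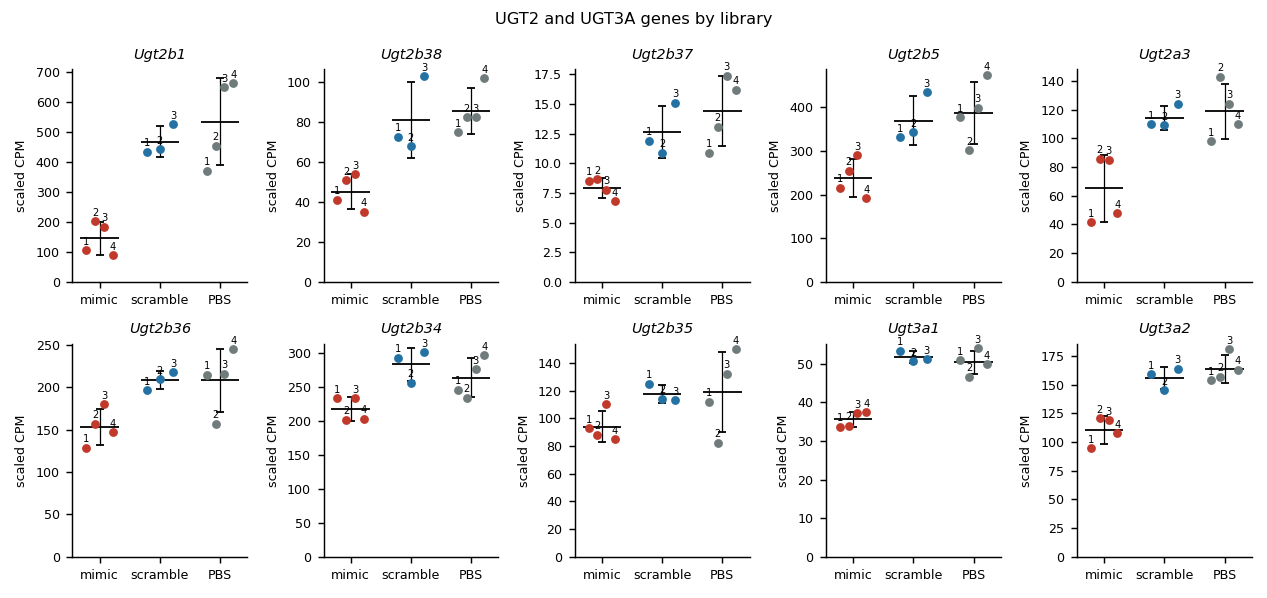
Scaled CPM of the 8 UGT2 genes and 2 UGT3A genes in each library (points, numbered by replicate), with group means (lines) and SD (bars), mimic left, scramble centre and PBS right. The mimic libraries of Ugt2b1 reach 202 at most and the control libraries start at 370, while Ugt2b35 overlaps; after division by library totals the changes of Ugt2b34, Ugt2b35, Ugt2b36, Ugt3a1 and Ugt3a2 are above 0 against both controls.

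Both UGT3A genes fell, although after division by library totals their changes were 0.05 and 0.09 against scramble and 0.11 and 0.04 against PBS. Enzymes of this family use other sugar donors than glucuronate, as shown for the human proteins. Ugt3a1 had 33.7, 33.9, 37.2 and 37.4 scaled CPM in mimic livers, 53.4, 50.7 and 51.1 in scramble livers, and 50.9, 46.6, 54.0 and 49.8 in PBS livers. The 4 mimic values lay close together and below all control values (−0.53 ± 0.07, adjusted p = 0.00039, against scramble, and −0.49 ± 0.07, adjusted p = 0.00033, against PBS). Ugt3a2 had 94.9, 121, 119 and 108 scaled CPM in mimic livers, 159, 145 and 164 in scramble livers, and 154, 157, 181 and 163 in PBS livers. Again no mimic library reached a control library (−0.49 ± 0.10, adjusted p = 0.0040, and −0.56 ± 0.09, adjusted p = 0.0010). The mimic means were 0.687 and 0.710 times the scramble means for Ugt3a1 and Ugt3a2.

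The UGT1A locus on chromosome 1 makes its enzymes from separate first exons joined to shared later exons, and includes Ugt1a1, the enzyme of bilirubin glucuronidation. All 7 rows fell in both comparisons, and after division by library totals they kept their sign and were not called. Ugt1a1 had 166, 224, 226 and 207 scaled CPM in mimic livers, 397, 418 and 354 in scramble livers, and 401, 277, 353 and 365 in PBS livers. All mimic libraries were below all control libraries, of which PBS 2 was lowest. The mimic mean was 0.528 times the scramble mean (−0.93 ± 0.14, adjusted p = 0.00084) and 0.589 times the PBS mean (−0.76 ± 0.13, adjusted p = 0.0014). Ugt1a10, the widest row, had 207, 281, 273 and 254 scaled CPM in mimic livers, 468, 474 and 415 in scramble livers, and 463, 318, 408 and 432 in PBS livers. It fell by 0.84 (adjusted p = 0.0014) and by 0.67 (adjusted p = 0.0028) on the log2 scale, and the rows between it and Ugt1a1 fell by 0.84 to 0.93 against scramble.

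These rows are nested, so they cannot be read as 7 genes. In all 11 libraries the level order was Ugt1a10, Ugt1a9, Ugt1a7c, Ugt1a6a, Ugt1a5 and Ugt1a1, which is their order of annotated starts. Ugt1a2 stood outside that order: its annotated start, at 88200601, lies after that of Ugt1a5, at 88166012, yet it had the same value as Ugt1a6a in 11 of 11 libraries. The Ugt1a1 row alone was 79.8 to 88.2% of the Ugt1a10 row. The difference between neighbouring rows describes what the wider row adds.

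The part that the Ugt1a6a row adds to the Ugt1a5 row overlapped between the groups. Since the Ugt1a2 row has the same values, the part is equally what the Ugt1a2 row adds. It had 35.8, 48.9, 40.0 and 39.6 scaled CPM in mimic livers, 55.9, 45.8 and 47.6 in scramble livers, and 48.1, 34.3, 46.0 and 54.4 in PBS livers, so that the mimic mean was 0.825 times the scramble mean and 0.899 times the PBS mean. As a share of the Ugt1a10 row it was 14.7 to 17.4% in mimic livers, 9.66 to 12.0% in scramble livers and 10.4 to 12.6% in PBS livers. The mimic shares lay above all control shares. The part between the Ugt1a5 and Ugt1a1 rows averaged 3.89 ± 0.715 scaled CPM in mimic livers, 8.44 ± 1.57 in scramble livers and 6.42 ± 2.76 in PBS livers. These parts were singled out after their values had been seen, and they were not tested.

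**Figure D3:**
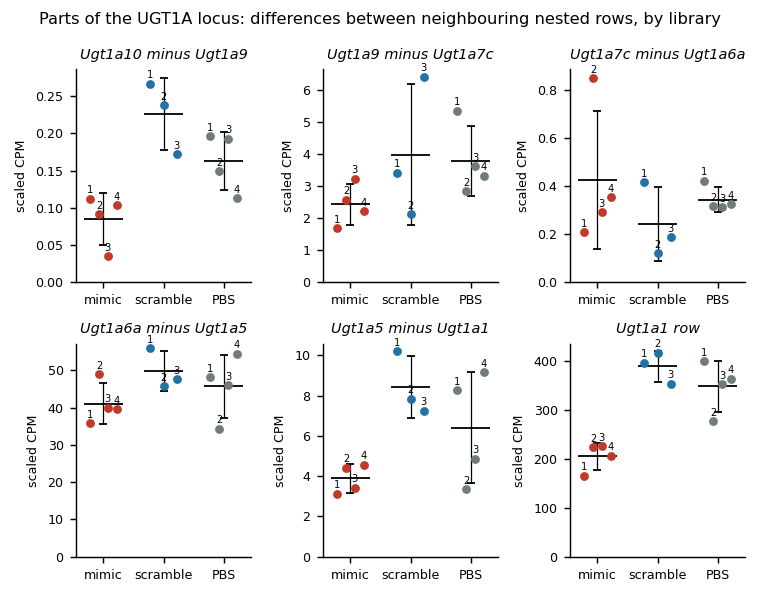
Scaled CPM that each nested UGT1A row adds to the next narrower one, and of the narrowest row, Ugt1a1, in each library (points, numbered by replicate), with group means (lines) and SD (bars), mimic left, scramble centre and PBS right. The Ugt1a1 row lies at 166 to 226 in mimic livers and at 277 or more in the control livers, while the part of the Ugt1a6a row, which is also that of the Ugt1a2 row, overlaps between the groups.

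In the GST mu family, 5 of 7 genes rose against both controls and none fell. These cytosolic transferases conjugate epoxides and other electrophiles, and several are known targets of NRF2 in mouse. Gstm2 had 19.1, 10.4, 7.87 and 19.6 scaled CPM in mimic livers, 6.17, 8.32 and 4.12 in scramble livers, and 5.71, 4.60, 4.38 and 5.68 in PBS livers. Mimic 1 and 4 were highest, and mimic 3 was below scramble 2, so the groups overlapped. Gstm2 rose by 1.03 ± 0.29 against scramble (adjusted p = 0.018) and by 1.24 ± 0.26 against PBS (adjusted p = 0.0044), and its means stood 2.29-fold and 2.79-fold higher.

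Gstm3 had 3.82, 2.56, 2.48 and 5.85 scaled CPM in mimic livers, 1.76, 1.78 and 1.01 in scramble livers, and 1.33, 0.596, 0.757 and 1.21 in PBS livers. All mimic libraries were above all control libraries (0.85 ± 0.23, adjusted p = 0.016, and 1.21 ± 0.21, adjusted p = 0.0015). Gstm5 had 4.27, 3.18, 3.39 and 4.24 scaled CPM in mimic livers, 2.06, 2.01 and 1.44 in scramble livers, and 1.55, 1.92, 1.66 and 1.31 in PBS livers. It separated the groups too (0.75 ± 0.12, adjusted p = 0.0010, and 0.87 ± 0.11, adjusted p = 0.00023). Gstm4 averaged 16.2 ± 4.53 scaled CPM in mimic livers, 10 ± 1.30 in scramble livers and 9.69 ± 0.901 in PBS livers (0.61, adjusted p = 0.023, and 0.65, adjusted p = 0.011). Gstm7 averaged 15.7 ± 4.45 scaled CPM in mimic livers, 10.5 ± 1.07 in scramble livers and 8.76 ± 1.07 in PBS livers (0.50, adjusted p = 0.049, and 0.74, adjusted p = 0.0050).

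Gstm1, the family member with the highest level, was not called. It had 161, 157, 176 and 192 scaled CPM in mimic livers, 164, 206 and 156 in scramble livers, and 190, 116, 136 and 158 in PBS livers, with changes of −0.03 (adjusted p = 0.92) and 0.21 (adjusted p = 0.28). Gstm6 was not called either (−0.21, adjusted p = 0.39, and 0.12, adjusted p = 0.59). Per kilobase of annotated exon, Gstm1 averaged 116 scaled CPM in mimic livers, 119 in scramble livers and 102 in PBS livers. The next GST mu genes by that measure in mimic livers, Gstm7 and Gstm4, reached 9.80 and 9.49. The family sum overlapped between the groups, with 239 ± 29.2 scaled CPM in mimic livers, 222 ± 35.3 in scramble livers and 189 ± 33.0 in PBS livers.

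Along chromosome 3 the cluster runs Gstm5, Gstm7, Gstm6, Gstm3, Gstm2, Gstm1 and Gstm4, so the genes that rose lie on both sides of the 2 that were not called. The calls against scramble were less firm than those against PBS. Without scramble 3, Gstm2, Gstm3, Gstm4 and Gstm7 were no longer called against scramble, and the number of members that rose was 2 in place of 6. Without scramble 1 it was 3, with Gstm2, Gstm4 and Gstm7 not called. All of these counts include Sult2a7, whose test supports nothing, so Gstm5 was the only GST mu gene called without scramble 3. Gstm4 and Gstm7 were also not called without mimic 1 or mimic 4, and Gstm7 not without scramble 2. The call of Gstm7 against scramble was also lost with median-of-ratios scaling and in a fit of those 2 groups alone. Without mimic 1 and 4, which were the highest mimic libraries in Gstm2, Gstm3, Gstm4, Gstm5, Gstm6, Gstm7 and Sult1c2, 2 members rose against scramble and 6 against PBS. The 2 were Gstm5 and Sult2a7. Against PBS, Gstm4 was then not called, so the 6 are not the same members as with all libraries. The mu genes are near-identical in places, and the span of Gstm5 overlaps another annotated gene, so that reads may be split between copies.

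**Figure D4:**
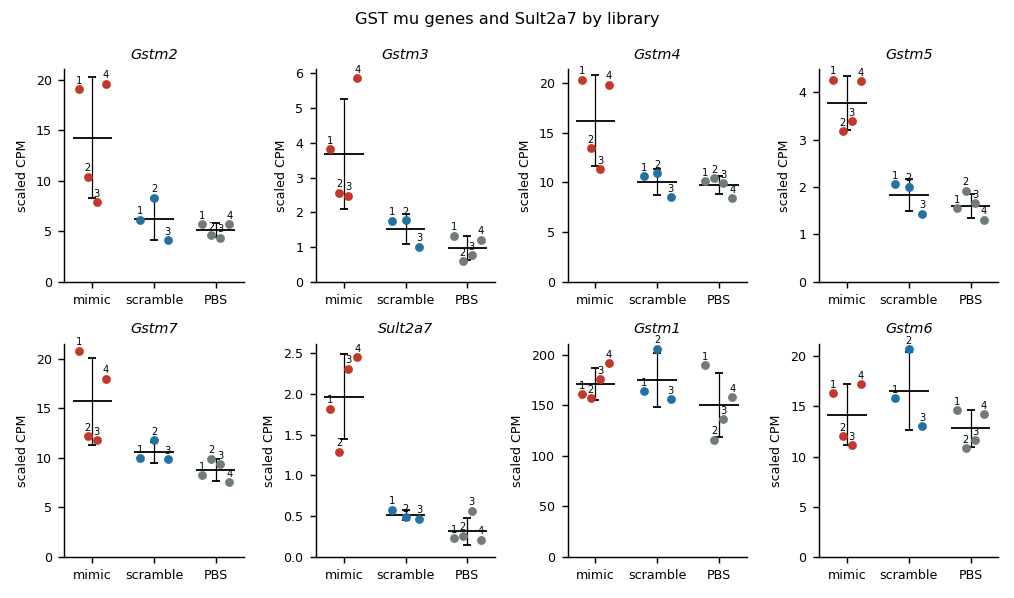
Scaled CPM of the 7 GST mu genes and of Sult2a7 in each library (points, numbered by replicate), with group means (lines) and SD (bars), mimic left, scramble centre and PBS right. Gstm3, Gstm4, Gstm5 and Sult2a7 have all 4 mimic libraries above all control libraries, Sult2a7 being in the table only through the mimic libraries; mimic 1 and 4 are highest in the 5 called GST mu genes, and Gstm1 and Gstm6 overlap.

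Of the 4 GST alpha genes, which include transferases for lipid aldehydes and for aflatoxin epoxide in mouse, 1 fell against scramble and 2 fell against PBS. Gsta4, known for conjugating hydroxynonenal, had 4.51, 5.77, 6.58 and 5.28 scaled CPM in mimic livers, 8.75, 13.8 and 9.86 in scramble livers, and 13.5, 6.05, 8.47 and 11.7 in PBS livers. Mimic 3 was above PBS 2, and all other control libraries were above the mimic libraries. Gsta4 fell by 0.84 ± 0.23 on the log2 scale against scramble (adjusted p = 0.016) and by 0.70 ± 0.21 against PBS (adjusted p = 0.022). The call was lost without scramble 2 in the first comparison. It was also lost without any one of mimic 1, mimic 4, PBS 1 or PBS 4 in the second.

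Gsta2 fell against PBS alone (−0.77, adjusted p = 0.041), a call lost without any one of mimic 1, 3 or 4 or PBS 1, 3 or 4, and in a fit of those 2 groups alone. Against scramble it changed by −0.68 (adjusted p = 0.090). Gsta3, the alpha gene with the highest level, had 161, 330, 265 and 252 scaled CPM in mimic livers, 403, 469 and 362 in scramble livers, and 322, 181, 304 and 389 in PBS livers. All mimic values were below the scramble values and overlapped the PBS values, and neither comparison was called (−0.74 ± 0.26, adjusted p = 0.0502, and −0.24, adjusted p = 0.46). Gsta1, under 2 scaled CPM throughout, was not called (−0.28 and −0.31).

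Among the GST theta genes, which act on small halogenated compounds, Gstt1 differed between the mimic and scramble groups. It had 46.9, 57.1, 61.1 and 51.1 scaled CPM in mimic livers, 116, 98.2 and 68.9 in scramble livers, and 73.1, 55.0, 76.0 and 64.2 in PBS livers. The mimic libraries were below the scramble libraries and overlapped PBS 2. Gstt1 fell by 0.77 ± 0.17 against scramble (adjusted p = 0.0059) and changed by −0.30 ± 0.16 against PBS (adjusted p = 0.15). Scramble livers differed from PBS livers by 0.47 for Gstt1 and by 0.62 for Gstt3, neither of which was called (adjusted p = 1.0). Gstt3 changed by −0.52 against scramble (adjusted p = 0.098) and 0.10 against PBS (adjusted p = 0.74), and Gstt2 by −0.25 and −0.26, with no call. Between the Gstt3 and Gstt1 rows the ratio was 0.303 to 0.370 in mimic livers, 0.25 to 0.323 in scramble livers and 0.239 to 0.274 in PBS livers.

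With the deposited scaling the GST pi genes were not called, and they spread widely in the mimic and scramble groups but not in the PBS group. GST pi is an abundant transferase of male mouse liver. Gstp1 had 290, 322, 405 and 154 scaled CPM in mimic livers, 137, 164 and 367 in scramble livers, and 238, 277, 296 and 279 in PBS livers. Mimic 4, scramble 1 and scramble 2 were the low libraries and mimic 3 and scramble 3 the high ones. Gstp2 followed it at 0.296 to 0.332 of its value in every library, and copies this close may share reads, so the pair cannot be read as 2 separate observations. The changes were 0.45 (adjusted p = 0.33) and 0.02 (adjusted p = 0.96) for Gstp1. Division by library totals gave 1.04 (adjusted p = 0.0038) and 0.63 (adjusted p = 0.037) for it, which relative to the median of all genes is 0.54 and 0.13.

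The kappa, omega and zeta genes were not called. Gstz1, the maleylacetoacetate isomerase of tyrosine breakdown, was the steadiest, with 301, 310, 316 and 317 scaled CPM in mimic livers, 352, 346 and 317 in scramble livers, and 304, 332, 348 and 292 in PBS livers (−0.12, adjusted p = 0.30, and −0.03, adjusted p = 0.77). Gsto1, a reductase-like transferase, changed by −0.44 (adjusted p = 0.058) and −0.37 (adjusted p = 0.070). Gstk1, found in mitochondria and peroxisomes, changed by −0.33 (adjusted p = 0.10) and −0.27 (adjusted p = 0.14).

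Sult2a7, of the hydroxysteroid sulfotransferase family, passed the filter on low values only through the mimic libraries, so that its values are a description and its test supports nothing. It had 1.82, 1.29, 2.31 and 2.45 scaled CPM in mimic livers, 0.578, 0.488 and 0.468 in scramble livers, and 0.226, 0.261, 0.564 and 0.210 in PBS livers. The lowest mimic library was above the highest control library, and scramble 1 and PBS 3 were at like levels. Its relatives in the SULT2A family are close copies, so reads may be shared with genes not analysed here.

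Of the SULT1 genes, Sult1b1, known for thyroid hormone sulfation, fell against scramble, although after division by library totals its change was 0.05. It had 10, 11.2, 11 and 10.9 scaled CPM in mimic livers, 16.9, 17.7 and 12.7 in scramble livers, and 10.5, 11.8, 17.6 and 12.0 in PBS livers. The mimic values were below the scramble values and overlapped PBS 1 (−0.50 ± 0.15, adjusted p = 0.028, and −0.22 ± 0.14, adjusted p = 0.23). The call was lost without mimic 1, mimic 4, scramble 1 or scramble 2. Sult1c2, at 1.09 to 1.89 scaled CPM in mimic livers, was not called (−0.28, adjusted p = 0.14, and 0.09, adjusted p = 0.58).

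Several sulfotransferases split the mimic libraries instead. Sult1a1, the phenol sulfotransferase and the SULT gene with the highest level, had 59.4, 130, 139 and 74.7 scaled CPM in mimic livers, 114, 134 and 99.8 in scramble livers, and 92.9, 92.1, 99.7 and 76.9 in PBS livers. Mimic 1 and 4 were below all control libraries and mimic 3 was above them all, while mimic 2 was above all but scramble 2. The group change was −0.28 (adjusted p = 0.42) and 0.07 (adjusted p = 0.83). Sult1d1, a catecholamine sulfotransferase in mouse, had 38.9, 72.2, 74.8 and 42.5 scaled CPM in mimic livers, 71.0, 65.7 and 93.3 in scramble livers, and 62.7, 65.3, 85.6 and 72.4 in PBS livers (−0.46, adjusted p = 0.14, and −0.37, adjusted p = 0.18). Sult5a1 had 6.85, 14.6, 17.5 and 7.0 scaled CPM in mimic livers, 16.0, 10.9 and 12.1 in scramble livers, and 5.19, 17.3, 13.7 and 15.2 in PBS livers (−0.26, adjusted p = 0.64, and −0.14, adjusted p = 0.78). In all 3 genes mimic 1 and 4 were the low pair of the mimic group.

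The estrogen sulfotransferase Sult1e1 had 0.176, 2.22, 2.72 and 0.365 scaled CPM in mimic livers, 0.326, 0.343 and 0.359 in scramble livers, and 0.196, 5.04, 1.78 and 0.274 in PBS livers. It exceeded 1 CPM in 2 mimic libraries and 2 control libraries. High and low libraries occurred in the mimic and the PBS groups, and the gene was not called (0.64 ± 0.54, adjusted p = 0.38, and −0.10 ± 0.50, adjusted p = 0.89). Sult1b1, Sult1d1 and Sult1e1 follow the UGT2 genes on chromosome 5. Mimic 1 and 4 were the lowest mimic libraries in 27 of 43 members. These were all 7 UGT1A rows, Ugt2a3, Ugt2b1, Ugt2b5, Ugt2b36, Ugt2b38, Ugt3a2, the 4 GST alpha genes, Gsto1, Gstp1, Gstp2, Gstt1, Gstt3 and the 5 sulfotransferases Sult1a1, Sult1b1, Sult1d1, Sult1e1 and Sult5a1. Mimic 1 and 4 were the highest mimic libraries in 7 members. The share of all genes with either order is not given here, so these counts are not read as a trait of the members. The UGT1A rows among them share reads, and Gstp1 and Gstp2 may do so. Without both libraries, 13 of the 25 members called against scramble and 18 of the 23 called against PBS were still called, and 11 members were lower against scramble. Sult2a7, in the table only through the mimic libraries, is among the 13 and among the 18. The calls lost against scramble were those of Gsta4, Gstm2, Gstm3, Gstm4, Gstm7, Gstt1, Sult1b1, Ugt2a3, Ugt2b5, Ugt2b34, Ugt2b36 and Ugt2b37, and those lost against PBS were Gsta2, Gsta4, Gstm4, Ugt2b5 and Ugt2b36.

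**Figure D5:**
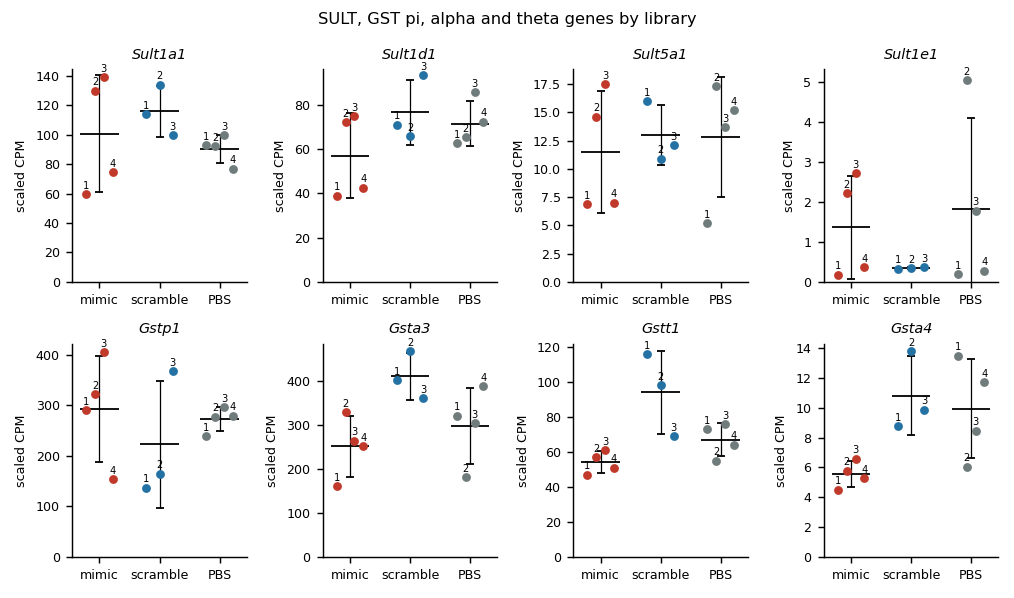
Scaled CPM of 4 sulfotransferase genes, Gstp1, Gsta3, Gstt1 and Gsta4 in each library (points, numbered by replicate), with group means (lines) and SD (bars, drawn down to 0 at most), mimic left, scramble centre and PBS right. Mimic 1 and 4 lie below mimic 2 and 3 in Sult1a1, Sult1d1, Sult5a1 and Sult1e1, and Gstt1 is below all scramble libraries in the mimic group but overlaps PBS.

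For a rough comparison of levels, values of members outside the UGT1A locus were divided by kilobases of annotated exon, over all transcripts of a gene. How reads were counted is not given in the sources used here, so the order between genes is uncertain. In PBS livers Ugt2b5 (209), Ugt2b1 (207) and Gstp1 (176 scaled CPM per kilobase) were highest. Ugt2b5 and Ugt2b1 did not differ beyond the spread of their libraries. In mimic livers Gstp1 (189), Ugt2b5 (128) and Gstm1 (116 scaled CPM per kilobase) were highest, and Ugt2b1 was at 56.3. In scramble livers Ugt2b5 (199), Ugt2b1 (181) and Gstp1 (144 scaled CPM per kilobase) led.

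Genes around the conjugation step were read from lists, with the call rule used for the members. Of all genes, 17.3% were called higher and 14.7% lower against scramble, and 20.0% higher and 17.1% lower against PBS. The lists are short and were not tested, and counts near these shares are not read as results. List medians below are median log2 changes, first against scramble and then against PBS. Of 8 measured genes of UDP-glucuronate supply, 1 rose and 2 fell against each control (list medians −0.02 and −0.07). Ugp2, which makes UDP-glucose, fell (−0.61, adjusted p = 0.032, and −0.73, adjusted p = 0.0090). Of the phosphoglucomutase genes, Pgm1 rose (0.63 and 0.62) at a low level. It averaged 2.35 scaled CPM in mimic livers, 1.15 in scramble livers and 1.19 in PBS livers. Pgm2, which averaged 95.3, 113 and 110 in the same order, fell by 0.25 and 0.21. After division by library totals Pgm2 was at 0.34 and 0.40. Ugdh, which makes UDP-glucuronate, was not called (0.06 and −0.22). Of 9 genes of PAPS supply and turnover, 2 rose and 1 fell against scramble, and 3 rose and 1 fell against PBS (list medians −0.05 and 0.24). The sulfate transporter Slc26a1 rose (0.50 and 0.42), as did the PAPS transporter Slc35b3 (0.35 and 0.24), and the phosphatase Impad1 fell (−0.54 and −0.50, though 0.05 against PBS after division by library totals).

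Of 15 genes of glutathione supply and turnover, 4 rose and none fell against each control, with a list median of 0.02 in each. The genes that rose are named first. They were G6pdx, which supplies NADPH (0.61, adjusted p = 0.00018, against scramble, and 0.54, adjusted p = 0.00019, against PBS), and the glutamyl transferase relative Ggt6 (0.96, adjusted p = 0.00042, and 0.84, adjusted p = 0.00047). Cbs of the transsulfuration pathway (0.69, adjusted p = 0.0029, and 0.37, adjusted p = 0.034) and Ggct (0.42, adjusted p = 0.037, and 0.36, adjusted p = 0.044) were the others. The call of Cbs against PBS was lost without any one of mimic 1, 2 or 3 or PBS 1, 3 or 4. That of Ggct was lost against scramble without any one of mimic 1, 3 or 4 or scramble 1, 2 or 3, and against PBS without any one of mimic 1, 3 or 4 or PBS 1, 3 or 4 and in the fit of those 2 groups alone. Gclc, the catalytic subunit of the rate-limiting enzyme, changed by −0.79 (adjusted p = 0.098) and −0.83 (adjusted p = 0.059) and was not called. Of 7 other glutathione transferases, Hpgds and Clic1 were called higher against both controls (list medians 0.12 and 0.22). Hpgds, the sigma-class prostaglandin D synthase known from macrophages and mast cells, averaged 3.23 scaled CPM in mimic livers, 0.611 in scramble livers and 0.664 in PBS livers. It too exceeded 1 CPM in 4 mimic libraries and 0 control libraries, so it passed the filter only through the mimic libraries and its call supports nothing. Clic1, a chloride channel protein of the transferase fold, averaged 10.3 scaled CPM in mimic livers, 4.11 in scramble livers and 4.90 in PBS livers (1.14 and 0.95). Mgst1, the microsomal enzyme at a mean of 1358 scaled CPM in mimic livers, 1506 in scramble livers and 1537 in PBS livers, was not called (−0.15 and −0.18).

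Of 21 other conjugating enzymes, 2 rose and 10 fell against scramble, and 3 rose and 7 fell against PBS (list medians −0.16 and −0.11). The glycine conjugation gene Glyat (−0.70 and −0.72) and its relative Keg1 (−1.15 and −0.67) fell, and so did the acyl-CoA synthetase Acsm3 (−0.88 and −0.69). After division by library totals, Glyat and Acsm3 were at −0.12 and −0.09 against PBS and were not called. As3mt, the arsenic methyltransferase, rose (0.95 and 0.98). Of 6 deconjugating enzymes, Gusb, the lysosomal glucuronidase, rose against both (0.49 and 0.36), and 3 in all rose against PBS. Of 9 transporters of conjugates, none rose, 4 fell against scramble and 5 fell against PBS (list medians −0.57 and −0.40). Slco1a1, a sinusoidal uptake carrier, averaged 45.6 scaled CPM in mimic livers, 251 in scramble livers and 230 in PBS livers (−2.45 and −2.29). Slco1b2 (−0.76 and −0.66), Abcg2 (−0.61 and −0.67) and Abcc3 (−0.65 and −0.51, though 0.10 against PBS after division by library totals) also fell. Abcg2 was at −0.07 against PBS after division by library totals and was not called.

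Of 20 regulators, none rose and 7 fell against scramble, and 1 rose and 6 fell against PBS (list medians −0.22 and −0.03). The xenobiotic receptor genes Nr1i3 (CAR, −0.85 and −0.72) and Nr1i2 (PXR, −0.48 and −0.45) fell, and so did Ppara (−0.67 and −0.46), Nr3c1 (−0.53 and −0.48) and Arnt (−0.43 and −0.34). The call of Nr1i3 was lost against scramble without any one of mimic 4 or scramble 1, 2 or 3, and against PBS without any one of mimic 1 or 4 or PBS 1, 3 or 4. Without mimic 1 and 4 together it changed by −0.46 (adjusted p = 0.13) and −0.33 (adjusted p = 0.23). The call of Nr1i2 was lost in both comparisons without mimic 1 and 4 together, and against scramble without scramble 1. The gene that rose against PBS was Esr1, the estrogen receptor alpha, which averaged 15.4 ± 2.16 scaled CPM in mimic livers, 14.7 ± 4.47 in scramble livers and 6.30 ± 1.54 in PBS livers (0.10, adjusted p = 0.73, against scramble, and 1.19, adjusted p = 0.00061, against PBS). Scramble livers differed from PBS livers by 1.09 for Esr1, which was not called (adjusted p = 0.56). After division by library totals, Nr1i2, Nr3c1 and Arnt were at 0.10, 0.04 and 0.13 against scramble, and Nr1i2, Nr3c1, Arnt and Ppara at 0.15, 0.11, 0.24 and 0.14 against PBS. Nfe2l2, which encodes NRF2 (0.06 in each comparison), Ahr (−0.27 and 0.00) and Hnf4a (−0.38 and −0.31) were not called. Of 9 response genes, 3 rose and 3 fell against scramble, and 2 rose and 2 fell against PBS (list medians −0.15 and −0.17). The NRF2 targets Nqo1 (0.54 and 0.77) and Hmox1 (0.66 and 0.68) rose, Srxn1 rose against scramble (0.62), and Txnrd1 was not called (−0.12 and −0.17). Cyp3a11, a PXR target, averaged 195 scaled CPM in mimic livers, 1043 in scramble livers and 1109 in PBS livers (−2.45 and −2.52), and Cyp1a2 fell too (−0.68 and −0.60).

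Cell type markers moved with the mimic beside these changes. The 6 hepatocyte markers, which are all present, summed to 15859 to 20663 scaled CPM in mimic livers, 22392 to 27279 in scramble livers and 21215 to 28280 in PBS livers. Most of that sum is Alb, and the other 5 summed to 5494 to 7000 in mimic livers, 6589 to 6992 in scramble livers and 6351 to 7319 in PBS livers, which overlap. None of the 6 was called against scramble with limma, and Tat fell against PBS. The 7 markers of other macrophages and monocytes summed to 84.4 to 121 scaled CPM in mimic livers, 6.23 to 7.53 in scramble livers and 4.95 to 13.9 in PBS livers, and all 7 were called higher, of which Ccr2, Gpnmb, Ly6c2 and Trem2 passed the filter on low values only through the mimic libraries. The 5 markers of stellate cells and fibroblasts summed to 91.3 to 199 scaled CPM in mimic livers, 17.1 to 21.6 in scramble livers and 11.7 to 22.6 in PBS livers. Most of the mimic sum is Col3a1 and Col1a1. Without Col3a1 the sums were 31.5 to 72.7 in mimic livers, 11.1 to 12.8 in scramble livers and 8.71 to 13.4 in PBS livers. Of the 5, 4 were called higher against each control, and the stellate marker Lrat was not called (−0.37 and −0.23). The 4 neutrophil markers summed to 15.1 to 30.2 scaled CPM in mimic livers, 1.14 to 1.76 in scramble livers and 1.65 to 2.64 in PBS livers, with Ltf at 0 in scramble 1 and 3, and Ltf, S100a8 and S100a9 passed the filter only through the mimic libraries. Of 5 bile duct markers, 2 were measured, and they summed to 35.4 to 42.5 scaled CPM in mimic livers, 13.4 to 22.8 in scramble livers and 11.7 to 20.6 in PBS livers. Spp1 made up nearly all of that sum, and Sox9, in the table only through the mimic libraries, averaged 1.04 scaled CPM in mimic livers, 0.629 in scramble livers and 0.481 in PBS livers and was not called against scramble (adjusted p = 0.053). The 6 resident macrophage markers summed to 35.1 to 71.0 scaled CPM in mimic livers, 63.1 to 121 in scramble livers and 66.0 to 131 in PBS livers. Clec4f (−2.42 and −2.83), Vsig4 (−1.69 and −1.92), Timd4 (−1.69 and −2.02) and Cd163 (−1.74 and −1.94) fell against both controls. Cd5l, the highest of the 6, was not called, and without it the sums were 6.12 to 19.1 in mimic livers, 32.3 to 67.0 in scramble livers and 38.9 to 73.2 in PBS livers. The 5 endothelial markers summed to 38.4 to 64.4 scaled CPM in mimic livers, 59.4 to 73.8 in scramble livers and 58.3 to 78.4 in PBS livers. They did not move together. Against scramble, Lyve1 was called higher (0.80), Ptprb was called lower (−0.77) and 3 were not called. Against PBS, 3 were called lower, and Lyve1 was not called (0.59). The part of these cell type differences in the members' changes was not tested.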

How the data were processed

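Per the labels' protocols, RNA of frozen liver was made into stranded mRNA libraries and read as paired ends of 48 bases. The software named in the submitters' processing notes is edgeR 3.8.6 under R 3.1.2, SAMtools 0.1.19, bedtools 2.17.0, Bowtie, and for the reads themselves FastQC 0.11.3 and bcl2fastq 1.8.4, with build mm10; the annotation, the counter and its use of strand are not given in the sources used here. The deposited table holds 1 signal per gene and library, the authors' scaled CPM, for 13636 genes. It had been filtered before deposit: each gene exceeded 1 CPM, computed from the derived reads, in at least 3 libraries, so a gene under that level in the controls is in the table only through the mimic libraries. Its columns do not sum to a common total, and 100% of values are whole multiples of 1 step per column (tolerance 1e-06), from which reads per library were derived.

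Here log2(value + 1) was fitted with limma 3.58.1 in R 4.3.3, with a mean for each of the 3 groups over 11 libraries, a mean-variance trend and no further filter. P-values were adjusted by Benjamini-Hochberg over all genes, with a threshold of 0.05. Libraries of a group differed by more than counting noise, with a chi-square per degree of freedom of at least 61.0. The mimic libraries stood in 2 pairs over all genes. The value was 61.0 between mimic 1 and 4 and 112 between mimic 2 and 3, but 773 to 1333 between libraries of different pairs. Within the scramble and PBS groups it was 447 at most. Positions are from GENCODE M21 (GRCm38), and promoters and miRNAs from RefSeq (GRCm38.p6). The members, lists and tests were chosen with earlier results of these data known. Per-library values are given for the member of each family with the highest mean and for the called members with the smallest p, others having been added after their values were seen. Alternatives were another pseudocount, a filter, other scalings, a replicate block, fits of 2 groups and fits without single libraries. The results of 1 planned regulator and 1 planned motif are not reported here.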

Additional observations from a re-analysis of the deposited data

Results flagged for a closer look

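Of 86 groups of 4 libraries examined over the members, 1 held a library far from the others, where chance alone flags about 1 in 20. Sult2a7 in PBS 3 was at 0.564 scaled CPM, with 0.226, 0.261 and 0.210 in the other PBS libraries. Its gap to the nearest of them was 0.856 of the group's range, above the critical value of 0.829. Sult2a7 is in the table only through the mimic libraries.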

How the results depend on the processing

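The settings that moved the counts most were the scaling, a filter on low values and the choice of libraries. Dividing reads by library totals left 1 member lower against scramble and 1 lower against PBS, with 9 higher against scramble and 13 against PBS. These counts have no share of all genes beside them, and the median of all genes moved with the scaling. Under that scaling the changes against scramble turned to 0.13 for Arnt, 0.10 for Nr1i2, 0.04 for Nr3c1, 0.34 for Pgm2, 0.05 for Sult1b1, 0.21 for Ugt2b34, 0.13 for Ugt2b36, 0.05 for Ugt3a1 and 0.09 for Ugt3a2. Against PBS they turned to 0.10 for Abcc3, 0.24 for Arnt, 0.05 for Impad1, 0.15 for Nr1i2, 0.11 for Nr3c1, 0.40 for Pgm2, 0.14 for Ppara, 0.17 for Ugt2b36, 0.11 for Ugt3a1 and 0.04 for Ugt3a2. Abcg2, Acsm3 and Glyat kept their sign against PBS but shrank to −0.07, −0.09 and −0.12 and were not called. With only genes of a mean of at least 5, 3 members were higher against scramble and 3 against PBS, since low members were then not tested. Leaving out single libraries gave 2 to 6 members higher against scramble. Without mimic 1 and 4, 2 were higher and 11 lower against scramble. The higher members in all of these fits with libraries left out include Sult2a7, whose test supports nothing. A pseudocount of 0.25 kept all 25 and 23 called members. With the replicate number as a block (replicate block), 5 members rose and 19 fell against scramble, and 6 rose and 16 fell against PBS. The block ended the calls of Gstm7 and Sult1b1 against scramble and of Gsta2 and Gsta4 against PBS. Among the other genes named, it ended those of Abcc3, Ggct, Nr1i3 and Pgm2 in both comparisons, of Ugp2 against scramble and of Slc35b3 against PBS. Deviations of same-numbered libraries correlated at −0.28 to 0.26, so the numbers do not pair the libraries. No alternative called a member between scramble and PBS. The planned edgeR and DESeq2 tests on recovered reads were not run, as the table holds too few low values for the check of recovered reads.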
